A study of Mus musculus with 11 samples.

Results

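Hs3st4-high neurons of the embryonic mouse cortex were described in 2 single-cell RNA-seq libraries, one from a wild-type embryo (WT) and one from a Syncrip conditional knockout embryo (cKO). Their members were selected on raw counts of unique molecular identifiers (UMIs, 1 for each captured RNA molecule). A member had at least 1000 detected genes, at most 10% mitochondrial UMIs, at least 5 Hs3st4 UMIs, at most 2 Neurod1 UMIs, at most 1 Tfap2d UMI and at most 1 UMI summed over Dlx1, Dlx2, Dlx5 and Dlx6os1. The rule gave 1107 of 16335 cells, 523 of 7554 in WT and 584 of 8781 in cKO.

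Both libraries held dorsal cortex of 1 embryo at E14.5, a stage in embryonic days, taken from the same pregnant C57BL/6 mouse. The cKO embryo was Syncrip fl/fl; Emx1-Cre, with loxP sites around exons 2, 3 and 4 of Syncrip. This gene encodes an RNA-binding protein also named hnRNP Q. The WT embryo is labelled wild type. Emx1-Cre acts in progenitors of the dorsal neocortex and not in the ganglionic eminences, where Dlx-positive cells arise. With 1 embryo per genotype no test was possible, and the genotype cannot be told apart from the embryo, its sex or its library. The members held 0 Xist UMIs in WT and 7630 in cKO, and 1616 UMIs of 4 Y-linked genes in WT against 19 in cKO, so the WT embryo was male and the cKO embryo female. All intervals are 95% intervals and cover counting error only.

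Corticothalamic neurons are excitatory neurons of layer VI that send axons to the thalamus. They are among the first neurons of the cortical plate to be born, and the transcription factors Tbr1, Sox5, Tle4 and Zfpm2 mark or specify them. Subplate neurons are born earlier still and lie beneath layer VI. Hs3st4 encodes a heparan sulfate 3-O-sulfotransferase, an enzyme that adds a rare sulfate group to the heparan sulfate chains of cell-surface and matrix proteoglycans. The gene lies on the plus strand of mm10 chromosome 7, from position 123982869 to 124398989.

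Most cells held no Hs3st4 UMI, and the counts above 0 showed no gap at the limit. Of the cells that passed the rest of the rule, 3948 in WT and 4052 in cKO had 0 Hs3st4 UMIs. Those with 1 numbered 239 and 306, those with 4 numbered 33 and 45, and those with 5 numbered 28 and 36. The members had a median of 18 UMIs in WT (5 to 205) and 14 in cKO (5 to 87). In WT 122 members had 5 to 9 UMIs, 163 had 10 to 19 and 238 had 20 or more. The same classes held 177, 211 and 196 members in cKO, so the highest class held fewer members there although the cKO library held more members in all. Members were also deeper cells, with a median of 16904 UMIs in WT and 16189 in cKO, against 11974 and 11284 in all other cells.

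**Figure D1:**
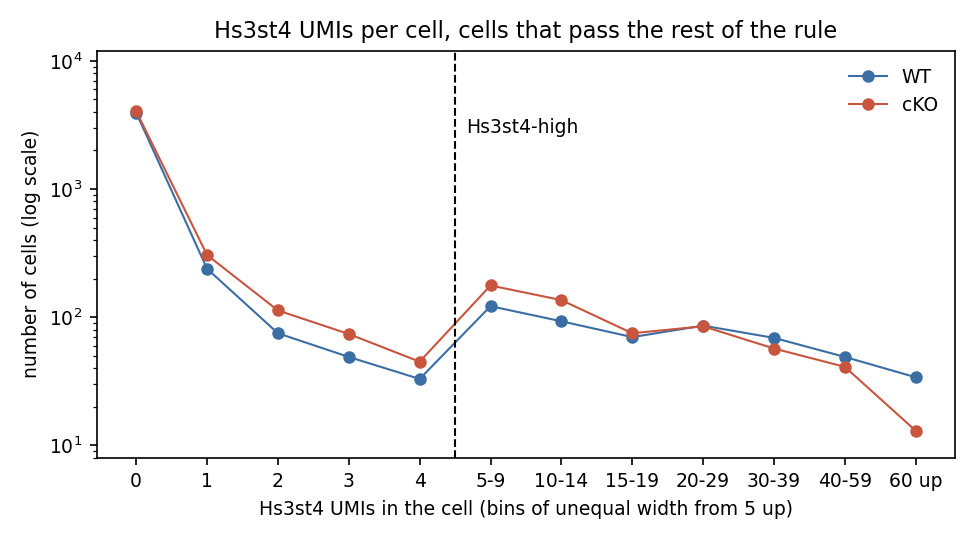
Number of cells (y axis, log scale) by Hs3st4 UMIs in the cell (x axis, classes of unequal width from 5 upwards) among cells that passed the rest of the rule, in the WT and cKO libraries, with the limit of 5 UMIs as a dashed line. Cells of exactly 4 UMIs (33 and 45) were no fewer than those of exactly 5 (28 and 36), so the limit marks no gap. The cKO line falls below the WT line at the highest counts.

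Cells just inside and just outside the limit held the same deep-layer genes at levels that did not move in one direction. The 28 WT cells with exactly 5 Hs3st4 UMIs had 978 Bcl11b and 356 Zfpm2 counts per 1000000 UMIs of the group (CPM), and the 33 with exactly 4 had 836 and 353. In cKO the 36 cells with 5 UMIs had 951 Bcl11b and 287 Zfpm2 CPM, and the 45 with 4 had 949 and 499. Tle4 was higher at 5 UMIs than at 4 in both libraries, at 131 against 91.8 CPM in WT and 265 against 168 CPM in cKO. Foxp2 was higher at 5 in WT, at 172 against 72.3 CPM, and lower in cKO, at 135 against 279 CPM.

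The members were 6.92% of the WT cells (6.36 to 7.52) and 6.65% of the cKO cells (6.14 to 7.19), a log2 ratio of cKO over WT of -0.06 (-0.23 to 0.12). These shares were within each other's counting error. Among excitatory neurons the order differed. These were cells with at least 2 Neurod2 and 2 Neurod6 UMIs and at most 1 Eomes UMI, within the rule's limits on Neurod1, Tfap2d and Dlx. Neurod1-high neurons (at least 5 Neurod1 UMIs), 885 in WT and 1072 in cKO, did not meet these limits. The 461 WT members that met them were 15.7% (14.4 to 17.1) of 2930 such cells, and the 508 cKO members were 18.3% (16.9 to 19.8) of 2780, a log2 ratio of 0.22 (0.03 to 0.40). Hs3st4-low excitatory neurons were 31.1% of all WT cells and 24.03% of all cKO cells, and Dlx-positive cells were 12.02% and 15.2%. The part of the dissection of each embryo in these shares was not tested.

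Within the libraries the members were compared with Hs3st4-low excitatory neurons, cells with at most 1 Hs3st4 UMI, at least 2 Neurod2 and 2 Neurod6 UMIs, at most 1 Eomes UMI and the same limits on Neurod1, Tfap2d and Dlx. There were 2348 in WT and 2110 in cKO. Because the rule chose the members on these same cells, the comparison is a description. A gene counted as higher or lower when its summed CPM differed at least 2-fold, the same way, in both libraries. Of 11386 genes measured, 456 were higher in members (4.0%) and 336 were lower (2.95%).

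The 6 genes that mark these cells were all higher in members than in Hs3st4-low neurons. Hs3st4 itself, which the rule used, stood at 1417 CPM in WT members and 1162 CPM in cKO members, against 4.45 and 6.44 CPM in Hs3st4-low neurons. Zfpm2, a GATA cofactor also named Fog2, stood at 999 and 946 CPM against 54.7 and 50.1. Rgs6, a regulator of G protein signalling, stood at 905 and 953 CPM against 96.1 and 156. Tle4, a Groucho family corepressor, stood at 646 and 550 CPM against 86.8 and 88.8. Sybu, which encodes syntabulin, a linker of axonal cargo to kinesin, stood at 549 and 500 CPM against 45.9 and 54.1. Tbr1, a T-box factor of early-born cortical neurons, differed least, at 252 and 287 CPM against 106 and 137. The members were the highest of the groups compared for each of these genes in both libraries.

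**Figure D2:**
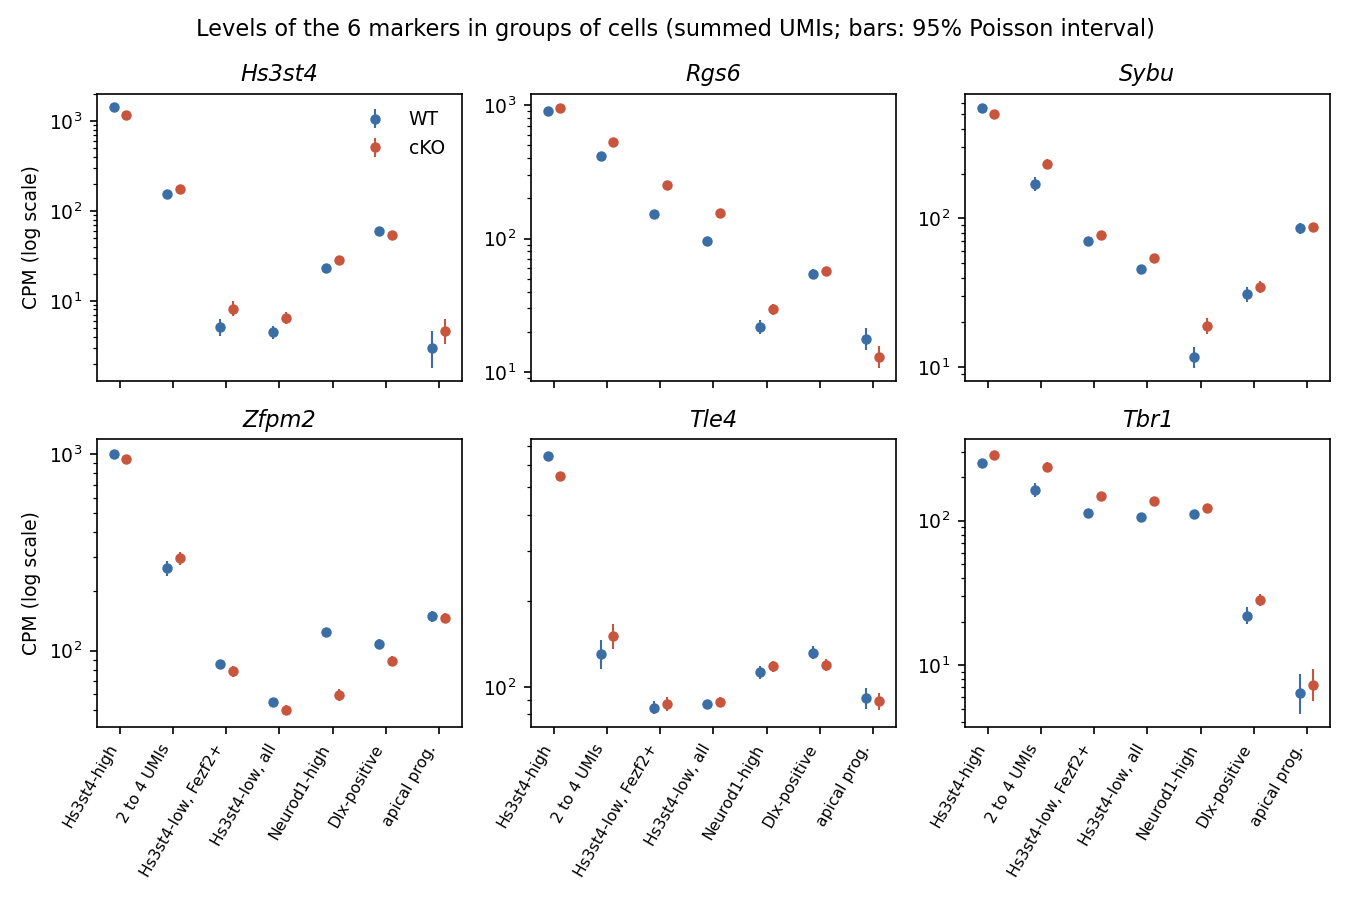
CPM (y axis, log scale) of the 6 marker genes in 7 groups of cells, in WT and cKO, as summed UMIs with 95% Poisson intervals. Hs3st4-high neurons were highest in every panel, and Tbr1 had the smallest step from Hs3st4-high (252 and 287 CPM) to Hs3st4-low neurons (106 and 137 CPM).

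Because members were deeper, every cell was also thinned to 5000 UMIs. After thinning, 40.04% of 487 WT members and 42.5% of 532 cKO members had all 5 markers other than Hs3st4, against 0.49% and 0.94% of Hs3st4-low neurons. Before thinning these shares were 76.3% and 71.2% of members, and 2.68% and 4.31% of Hs3st4-low neurons. Thinning left out 36 WT and 52 cKO members with fewer UMIs. Thinned Hs3st4 UMIs were found in 97.5% of WT members and 97.2% of cKO members. The rule asked for at least 5 Hs3st4 UMIs, so the shares of members follow from it and are no separate result. The share was 1.76% and 1.61% in apical progenitors, whose median depths were 14700.5 and 14250.5 UMIs, and 8.01% and 6.54% in Dlx-positive cells, whose median depths were 9208 and 8457 UMIs.

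Most layer VI genes were higher in members. Of 10 layer VI corticothalamic genes, 8 were higher in members and 0 lower, against 4.0% and 2.95% of all genes measured. The median log2 ratio of the 10 was 2.26 in WT and 1.53 in cKO, against -0.06 and -0.05 over all genes measured. The list holds Zfpm2, Tle4 and Tbr1, which are also markers of the members, and of the other 7 genes 5 were higher, with medians of 1.98 and 1.24. Foxp2, a forkhead factor of layer VI, had log2 ratios of 2.53 (2.46 to 2.60) in WT and 2.32 (2.25 to 2.39) in cKO. Grik3, a kainate receptor subunit, had 3.18 and 2.55. Ntsr1, the neurotensin receptor that marks adult corticothalamic neurons, had 17.5 and 17.6 CPM in members against 5.49 and 7.47 CPM. Sox5 and Nfia, which are abundant in both groups, stayed under the 2-fold limit, at 0.82 and 0.67 for Sox5 and at 0.85 and 0.83 for Nfia.

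The median log2 ratio of 8 subplate genes with enough UMIs was 1.05 in WT and 1.02 in cKO. Of these genes, 4 were higher in members, against 4.0% of all genes measured. They were Kcnab1, a potassium channel subunit, at 3.16 and 3.24, St18 at 1.08 and 1.26, Inpp4b at 1.02 and 2.35, and Tmem163 at 1.06 and 1.02. Inpp4b had only 55 UMIs in WT and 65 in cKO members, 72.7% and 49.2% of them in 5 cells, and Tmem163 had 40 and 107, 47.5% and 37.4% of them in 5 cells. When members were held to the excitatory definition of the Hs3st4-low neurons, 1 of the 8 was higher. The subplate markers Cplx3, Ccn2 and Moxd1 did not separate the groups, being at or near 0 in both. In members Cplx3 had 0 UMIs in WT and 1 in cKO, Ccn2 had 9 and 0, and Moxd1 had 1 and 0, while in Hs3st4-low neurons Cplx3 had 1 and 1, Ccn2 had 1 and 6, and Moxd1 had 0 and 0. Nxph4, a secreted neurexophilin used as a subplate marker, stood at 19.9 and 19.2 CPM in members against 13.0 and 13.2 CPM. Nr4a2, a nuclear receptor of subplate neurons, stood at 26.4 and 22.5 CPM in members against 11.8 and 20.6 CPM in Hs3st4-low neurons. Whether the layer VI and subplate lists differ was not tested, and the cells are called Hs3st4-high neurons here.

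Upper layer genes were mostly lower in members, and no layer V gene passed the 2-fold limit in both libraries. Of 10 upper layer and callosal genes 7 were lower in members, against 2.95% of all genes measured. The median log2 ratio of the 10 was -2.68 in WT and -2.35 in cKO. Cux2 had -3.64 and -3.25, Cux1 had -2.85 and -2.49, and Pou3f2 had -2.72 and -2.70. The member of that list that was higher was Rorb, a nuclear receptor of layer IV, at 247 and 184 CPM against 59.7 and 50.4. None of 7 layer V subcerebral genes passed the fold, with median log2 ratios of 0.63 in WT and 0.47 in cKO. Bcl11b, also named Ctip2, had 991 and 977 CPM in members against 482 and 589, and Fezf2 had 331 and 289 against 170 and 157.

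**Figure D3:**
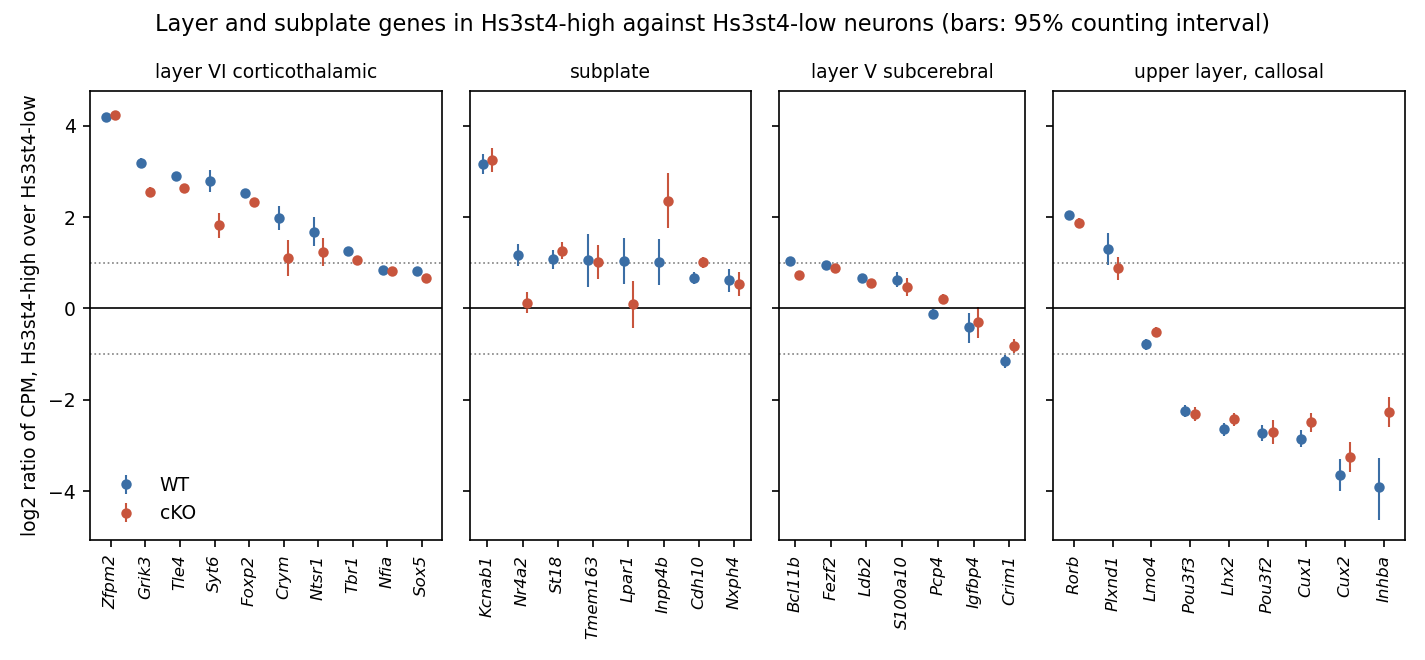
Log2 ratio of CPM in Hs3st4-high over Hs3st4-low neurons (y axis) for genes of 4 layer lists, in WT and cKO, with 95% counting intervals and dotted lines at 2-fold. Layer VI genes lay above 0 and 6 upper layer genes shown lay below -2, while Rorb lay near 2.

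Genes of newborn and migrating neurons were mostly lower in members. Of 8 such genes, 7 were lower than in Hs3st4-low neurons, against 2.95% of all genes measured. The median log2 ratios of the 8 were -2.62 in WT and -2.15 in cKO. Neurod1 was limited by the rule in both groups. Unc5d, a netrin receptor of migrating multipolar neurons, stood at 77.0 and 57.4 CPM against 810 and 582. Nrp1, a semaphorin receptor, stood at 46.1 and 26.3 CPM against 454 and 279. General neuronal genes differed little: Map2 had log2 ratios of 0.14 and 0.16, Tubb3 -0.05 and -0.02, and Dcx 0.10 and 0.09. Stmn2, a microtubule regulator of growing axons, had 0.82 and 0.80. Of 9 excitatory neuron genes, 2 were lower, Slc17a6 (-2.99 and -2.71) and Bhlhe22 (-1.30 and -1.15).

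Other enzymes of heparan sulfate synthesis also differed between members and Hs3st4-low neurons. Of 17 measured genes of heparan sulfate synthesis, 4 were higher in members and 3 lower, against 4.0% and 2.95% of all genes measured. The 4 higher genes were all 3-O-sulfotransferases, and 1 of them was Hs3st4, which the rule used. Besides it, Hs3st3b1 stood at 35.9 and 59.8 CPM in members against 0.488 and 1.63 CPM in Hs3st4-low neurons, log2 ratios of 6.20 (5.48 to 7.02) and 5.20 (4.76 to 5.67). Hs3st5 stood at 316 and 413 CPM against 82.9 and 91.4, and Hs3st2 at 22.9 and 22.6 CPM against 4.63 and 9.31. Hs3st1, of the same family, was lower in members, at 29.2 and 27.5 CPM against 62.2 and 57.7. The other 2 lower genes were Ndst3, an N-deacetylase and N-sulfotransferase (-2.98 and -2.97), and Hs6st3, a 6-O-sulfotransferase (-2.97 and -2.41). The chain polymerases Ext1 and Ext2 did not pass the fold, at -0.47 and -0.44 for Ext1 and at 0.13 and 0.18 for Ext2. Of 11 heparan sulfate proteoglycans 1 was higher and none was lower.

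Receptor, channel and vesicle genes were counted against the 4.0% higher and 2.95% lower over all genes measured. Of 14 glutamate receptor genes, 8 were higher and 1 lower, with median log2 ratios of 1.55 and 1.38. Grm3 and Grm7, metabotropic receptors, had 3.83 and 3.30 (Grm3) and 3.55 and 3.14 (Grm7). Of the Grm7 UMIs of members, 71.5% in WT and 56.4% in cKO lay in 5 cells. Grin2b, an NMDA receptor subunit, had 1.76 and 1.40. Grin2a, an NMDA receptor subunit that predominates in mature neurons, was lower, at -3.48 and -2.82, from 7 and 29 UMIs in members. Of 13 regulators of G protein signalling, 7 were higher and 0 lower, among them Rgs8 (3.28 and 3.56), Rgs9 (2.58 and 2.61) and Rgs16 (2.47 and 2.51). The 7 include Rgs6, which is also a marker of the members. Of 22 ion channel genes 5 were higher and 2 lower. Cacna1e, a calcium channel, had 2.45 and 2.28, and the sodium channel Scn1a had -2.97 and -3.21. Of 18 synaptic vesicle genes 1 was higher, Sv2b (2.78 and 2.19), and 1 lower, Syt4 (-2.54 and -2.20).

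Axon guidance genes were more often lower, 9 of 26 against 2 higher. Over all genes measured, 2.95% were lower and 4.0% higher. Plxna4, a semaphorin coreceptor, had log2 ratios of -3.80 and -3.25. Robo2, a Slit receptor, stood at 242 and 210 CPM in members against 2133 and 1734 CPM in Hs3st4-low neurons, while Robo1 did not pass the fold (-0.06 and 0.18). Slit1, a ligand of both receptors, was higher at 90.3 and 84.9 CPM against 13.5 and 20.3. The other gene that was higher was Ncam2, an adhesion molecule (1.48 and 1.71).

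The genes with the largest ratios over Hs3st4-low neurons in both libraries, after Hs3st4 and Hs3st3b1, were Cdh18, Drd1, Csgalnact1, Tmem132d, Zfpm2, Pdzd2, Trhde, Gabra5, Cntnap5b, Npas2, Necab1, Prickle1 and Spats2l. Drd1, the dopamine D1 receptor, had 105 UMIs in 81 WT members and 156 in 114 cKO members, 11.8 and 16.5 CPM against 0.244 and 0.672 CPM. Cdh18, a cadherin, had log2 ratios of 4.97 and 4.64, but its UMIs came from few cells: 42 of 523 WT members and 47 of 584 cKO members had any, and 58.2% and 42.9% of them lay in 5 cells. Gabra5, a GABA-A receptor subunit, had 3.79 and 4.15. Csgalnact1, an enzyme of chondroitin sulfate synthesis, had 4.61 and 4.60. The largest differences downwards, besides Unc5d, Nrp1 and Plxna4, were in Adamts2, Plxna4os3, Adamts1, Pdzrn3 and Pou3f1. Plxna4os3 is annotated as an antisense RNA of Plxna4.

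Each list of markers of other cell types summed to less in members than in all other cells. The highest sum was that of newborn and migrating neuron genes, 1323 CPM in WT members and 1210 CPM in cKO members against 2802 and 2371 CPM in all other cells, of which Tiam2 was the most abundant at 1123 and 1026 CPM. This list holds Neurod1, which the rule had limited in members but not in all other cells. Intermediate progenitor markers summed to 150 and 140 CPM against 702 and 744, and cell cycle genes to 90.1 and 72.9 CPM against 371 and 455. Ganglionic eminence and interneuron markers summed to 8.21 CPM in WT members and 15.9 CPM in cKO members, against 340 and 427 CPM in all other cells, and the rule had limited 4 of the 8. Apical progenitor markers summed to 269 and 266 CPM against 1423 and 1742. Microglia markers summed to 2.25 and 2.85 CPM, with P2ry12 the most abundant, and Trem2 at 0 in both libraries. Endothelial markers summed to 19.6 CPM in WT and 2.85 CPM in cKO members, with Cldn5 the most abundant in WT at 5.73 CPM. Of the 51 Cldn5 UMIs of WT members, 94.1% lay in 5 cells. Haemoglobin genes summed to 59.7 and 77.8 CPM against 528 and 704 in other cells.

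A minority of members did not meet the excitatory definition used for the comparison group. It was met by 461 of 523 WT members (88.1%, 85.1 to 90.8) and 508 of 584 cKO members (87.0%, 84.0 to 89.6). The remaining 62 and 76 members were shallow, with median depths of 3919 and 3858 UMIs against 17364 and 16613.5. They held 850 and 972 CPM of Rgs6, against 910 and 951 CPM in the others, and 610 and 719 CPM of Tle4, against 649 and 536. Zfpm2 stood at 839 and 1235 CPM against 1013 and 923. Tbr1 was lower in them in both libraries, at 165 and 217 CPM against 260 and 292. Top2a, a topoisomerase of dividing cells, was higher, at 117 and 36.6 CPM against 5.98 and 7.98. Of the Top2a UMIs of all members, 77.9% in WT and 50% in cKO lay in 5 cells, so these sums need not be levels of the set. Reln stood at 22.9 and 478 CPM against 19.5 and 25.9. Of the 567 Reln UMIs of all cKO members, 329 lay in 1 cell among these 76, so 478 CPM is not a level of the set. The members outside the definition also held most of the Eomes UMIs of the members. Eomes, the factor of intermediate progenitors, stood at 223 and 141 CPM in them against 3.05 and 2.39 CPM in the other members. The definition itself allows at most 1 Eomes UMI, so this Eomes contrast follows from it and is no separate result.

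Members differed among themselves along the Hs3st4 count. Tle4 stood at 258, 437 and 918 CPM in WT members with 5 to 9, 10 to 19 and 20 or more Hs3st4 UMIs, and at 300, 466 and 801 CPM in cKO members. Zfpm2 stood at 540, 719 and 1339 CPM in WT and 492, 828 and 1373 CPM in cKO. Sybu stood at 275, 413 and 734 CPM, and at 292, 429 and 710 CPM. Foxp2 stood at 224, 353 and 656 CPM, and at 284, 393 and 535 CPM. These 4 genes were thus higher in each successive class in both libraries. Bcl11b showed no such order, at 1012, 1043 and 955 CPM in WT and 1015, 985 and 944 CPM in cKO, and Fezf2 was lowest in the highest class, at 391, 400 and 268 CPM in WT and 360, 318 and 214 CPM in cKO. Across thinned members, the Spearman correlation with Hs3st4 was 0.46 in WT and 0.42 in cKO for Tle4, and 0.09 and 0.15 for Tbr1. It is a description over 487 and 532 cells that share a library and counts from the same 5000 UMIs.

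Members were also split by their Nr4a2 UMIs. At least 2 Nr4a2 UMIs were found in 43 WT members (8.22%, 6.01 to 10.9) and 32 cKO members (5.48%, 3.78 to 7.65), and 0 in 426 and 492. In these sets, which were defined by Nr4a2, the Kcnab1 level was 307 CPM for WT and 223 CPM for cKO, against 30.9 and 30.01 CPM in members without Nr4a2. The 43 WT cells held 272 of the 552 Kcnab1 UMIs of all WT members. Cdh10, a cadherin, stood at 421 and 455 CPM against 36.5 and 57.9. Lpar1, a lysophosphatidic acid receptor used as a subplate marker, and Tmem163, a zinc transporter, had log2 ratios of 2.24 and 3.13 and of 3.06 and 2.07, from 16 to 24 UMIs in each library. Other subplate genes did not follow Nr4a2: St18 had 0.02 in WT and -0.95 (-1.81 to -0.22) in cKO, and the intervals of Nxph4 (0.57 and 0.20) and Inpp4b (1.05 and 0.74) held 0 in both libraries.

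The layer genes of these cells differed in both libraries too. Tle4 was higher with Nr4a2, at 1234 and 1348 CPM against 562 and 468. Fezf2 was lower, at 116 and 118 CPM against 366 and 310. Ldb2, a cofactor of LIM domain factors, stood at 173 and 89.9 CPM against 481 and 453, and Bcl11b at 668 and 526 CPM against 1046 and 1030. Foxp2 and Tbr1 had intervals that held 0 in both libraries. Members with Nr4a2 were of similar depth, with medians of 18759 and 16923 UMIs against 16748 and 16158.5.

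**Figure D4:**
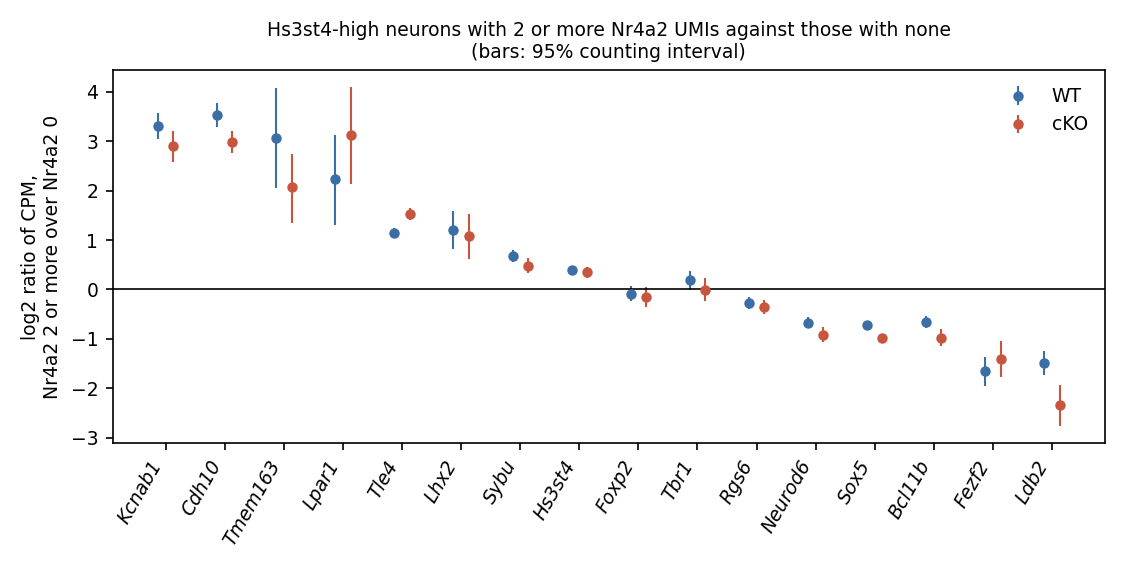
Log2 ratio of CPM (y axis) in Hs3st4-high neurons with 2 or more Nr4a2 UMIs over those with none, for 16 genes in WT and cKO, with 95% counting intervals. Kcnab1, Cdh10, Tmem163, Lpar1 and Tle4 lay above 1 in both libraries and Fezf2 and Ldb2 below -1.

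The last comparison asked how the members of the cKO library differed from those of the WT library. Syncrip stood at 261 CPM in WT members and 289 CPM in cKO members, a log2 ratio of 0.15 (0.07 to 0.23). The count table holds UMIs of 3′ chemistry per gene and not their position within Syncrip, so this value is no check of the loss of exons 2, 3 and 4. The ratio was 0.22 in Hs3st4-low neurons and -0.18 in Dlx-positive cells.

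Of 8586 genes with at least 200 UMIs over the members of both libraries, 78 were at least 1.5-fold higher in cKO (0.908%) and 63 at least 1.5-fold lower (0.734%). Each set held 1 gene on chromosome X. The members, Hs3st4-low neurons and Dlx-positive cells came from the same 2 libraries, so their counts are given side by side and no overlap is read from them. Over 8296 genes measured in all 3 groups, 61 were higher and 53 lower in members, 71 and 32 in Hs3st4-low neurons, and 24 and 21 in Dlx-positive cells.

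A pair of layer VI genes was lower in cKO members. Crym, a thyroid hormone-binding protein of deep-layer neurons, had 28.4 CPM in members of the WT library and 10.4 CPM in those of the cKO library, and 17.2% and 9.76% of members had a UMI, against 0.25% and 0.36% of apical progenitors. Its log2 ratio was -1.45 (-1.80 to -1.11) in members and -0.57 (-0.88 to -0.26) in Hs3st4-low neurons. Syt6, a synaptotagmin of layer VI, stood at 47.2 and 25.4 CPM, a log2 ratio of -0.89 (-1.13 to -0.66) in members and 0.08 in Hs3st4-low neurons. Both were lower in cKO in each Hs3st4 class: Syt6 stood at 30.4, 45.5 and 55.0 CPM in WT against 12.2, 29.8 and 30.6 CPM in cKO, from the lowest class to the highest, and Crym at 25.1, 41.1 and 23.0 CPM against 12.2, 11.4 and 8.28 CPM. Crym and Syt6 were the 2 of 10 layer VI genes past the fold. The others ranged less, with Tbr1 at 0.18, Zfpm2 at -0.08, Foxp2 at -0.20 and Tle4 at -0.23.

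Other genes with the lowest ratios had other roles, apart from Pou3f2, a gene of the upper layer list. Efna5, an ephrin ligand of axon guidance, stood at 41.2 and 17.7 CPM, a log2 ratio of -1.22 (-1.49 to -0.95) in members, -0.30 in Hs3st4-low neurons and -0.05 in Dlx-positive cells. Pou3f2, also named Brn2, had -1.25 in members, -1.27 in Hs3st4-low neurons and -0.47 in Dlx-positive cells. Slc4a4, a bicarbonate transporter, had -2.08, -1.58 and -0.86, and Vav3, a guanine nucleotide exchange factor, had -1.48, -0.78 and -0.59 in the same groups. These last 3 genes were lower in cKO in all 3 groups.

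Npy, a neuropeptide, and Cenpf, a kinetochore protein of dividing cells, rested on few cells. Npy had 274 UMIs in 46 WT members and 95 in 39 cKO members, with 65.3% and 52.6% of them in 5 cells. Cenpf had 176 and 74 UMIs in 22 members of each library, with 90.3% and 77.0% in 5 cells. Without the 5 highest members of each library, the log2 ratio of Cenpf went from -1.34 to -0.09 and that of Npy from -1.62 to -1.17.

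Among the genes higher in cKO, C1ql3, a secreted synaptic organizer, had 5.28 CPM in WT members and 17.6 CPM in cKO members, a log2 ratio of 1.74 (1.26 to 2.24), and 5.74% and 11.8% of members had a UMI, against 2.0% and 1.78% of apical progenitors. It was higher in Hs3st4-low neurons (1.34) and in Dlx-positive cells (1.41, from 6 and 22 UMIs) as well. Bc1, a noncoding RNA of neuronal dendrites, had 1.16, 1.24 and 1.15, and Ttc7 had 1.19, 1.66 and 0.99 in members, Hs3st4-low neurons and Dlx-positive cells. Nrxn3, a presynaptic adhesion protein, stood at 28.4 and 66.4 CPM in members (1.22, 1.01 to 1.44), against 0.19 in Hs3st4-low neurons and -0.02 in Dlx-positive cells. Its level in Dlx-positive cells was 9187 and 9072 CPM, and these cells made up 12.02% of WT and 15.2% of cKO cells. A Nrxn3 UMI was found in 21.0% of WT members and 36.8% of cKO members, and in 8.83% and 13.2% after thinning to 5000 UMIs. In Hs3st4-low neurons these shares were also higher in cKO, at 20.6% and 32.0%, and at 9.15% and 14.8% after thinning. Thinned microglia and endothelial cells had a Nrxn3 UMI in 14.8% of cells in both libraries, and apical progenitors in 14.6% and 17.0%. The thinned shares of members were no higher than these. Of the Nrxn3 UMIs of members, 43.9% in WT and 41.6% in cKO lay in 5 cells. Without the 5 highest members of each library the log2 ratio was 1.28. Whether background RNA or expression in the members gave the Nrxn3 ratio was not tested. Sphkap, an anchoring protein of protein kinase A, had 1.39 in members, 0.71 in Hs3st4-low neurons and 0.96 in Dlx-positive cells. Tafa2, a secreted peptide, had 1.27, 0.35 and 0.66 in the same groups. In WT and cKO members, 5 cells held 44.7% and 32.7% of the Sphkap UMIs and 53.0% and 47.1% of the Tafa2 UMIs.

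Reln and Thsd7b were also among the highest ratios, with 62.4% to 76.2% of the Thsd7b UMIs and 70.9% of the cKO Reln UMIs in 5 cells of a library. Reln, the secreted glycoprotein of Cajal-Retzius cells, had 176 UMIs in WT and 567 in cKO members, and 329 of the 567 lay in 1 cell. A Reln UMI was found in 16.8% of WT members and 15.8% of cKO members, against 4.25% and 10.1% of apical progenitors. Without the 5 highest members of each library its log2 ratio was 0.22, against 1.60 with them. In Hs3st4-low neurons the Reln ratio was 1.54 (1.39 to 1.69), from 502 and 1260 UMIs, and 8.99% and 9.62% of those cells had one. Trp73, another Cajal-Retzius marker, had 1 UMI in WT members and 20 in cKO members, 16 of them in 1 cell. Cajal-Retzius markers, 7 genes of which Reln was the most abundant, summed to 25.4 CPM in WT members and 77.4 CPM in cKO members, against 133 and 139 CPM in all other cells, and Lhx5 was at 0 in WT members. Thsd7b had 63 UMIs in 19 WT members and 170 in 31 cKO members, and its log2 ratio was 2.00 without the 5 highest members, against 1.34 with them. In Hs3st4-low neurons the Thsd7b ratio was 2.94 (2.42 to 3.49), from 35 and 231 UMIs. When members were taken from 3 Hs3st4 UMIs upwards, the ratio in members was -0.50 for Reln and -0.088 for Thsd7b, the opposite sign.

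Of the 78 genes higher in cKO, 76 remained past 1.5-fold without their 5 highest members in each library, and of the 63 lower genes 53 did.

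**Figure D5:**
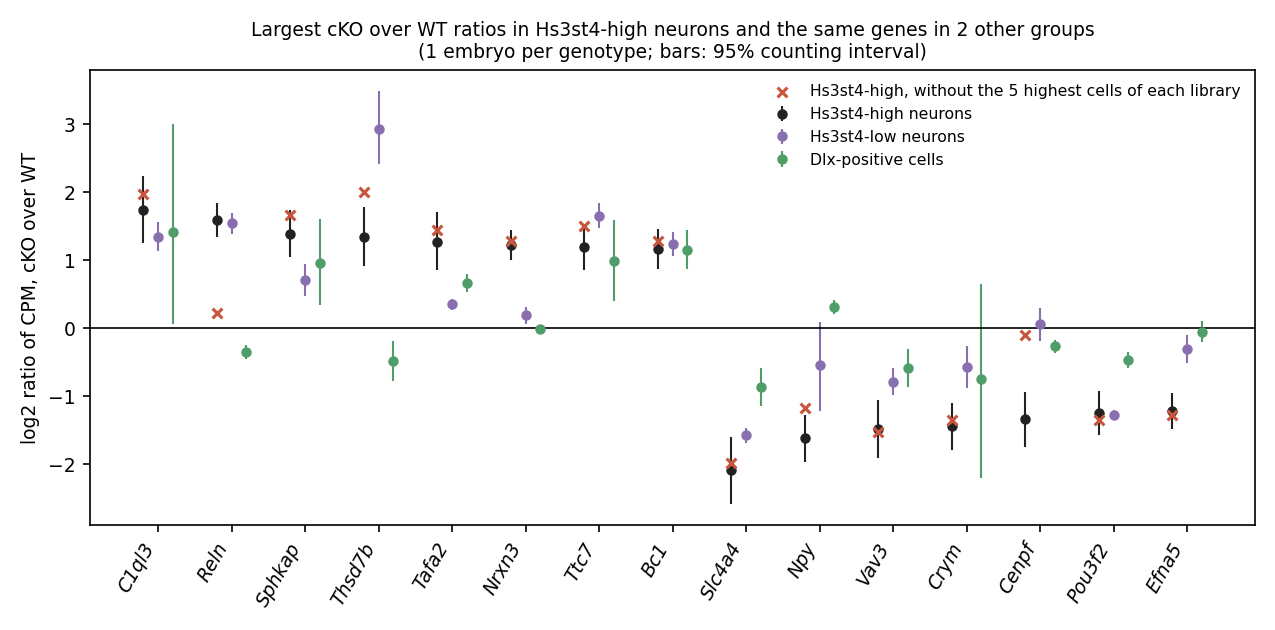
Log2 ratio of CPM, cKO over WT (y axis), for 8 genes of the highest and 7 of the lowest ratios in Hs3st4-high neurons, with the same ratio in Hs3st4-low neurons and Dlx-positive cells and 95% counting intervals. Crosses leave out the 5 highest Hs3st4-high cells of each library for that gene. Reln (from 1.60 to 0.22) and Cenpf (from -1.34 to -0.09) moved most.

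Of 14 measured genes of heparan sulfate synthesis 2 were higher in cKO members and 0 lower, against 0.908% and 0.734% of all genes, and their median log2 ratio was 0.06. Hs3st3b1 was higher in cKO members, with a log2 ratio of 0.74 (0.54 to 0.94), and found in 28.1% of WT members and 42.3% of cKO members, against 0.75% and 0.89% of apical progenitors. Its ratio was 1.74 in Hs3st4-low neurons, from 16 and 46 UMIs. Sulf1, an extracellular enzyme that removes 6-O-sulfate, had 0.92 (0.53 to 1.31) in members. Hs3st5 had 0.39 and Hs3st4 -0.29 (-0.32 to -0.25), both within the fold.

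Most genes of a last list were within the fold in members. It held genes that the study named and others added with earlier results of these samples known, Lsamp and Nrp1 among the latter, so it is not independent evidence. Of 17 of its genes measured, 1 was higher, Lsamp (0.79, 0.75 to 0.83), and 1 lower, Nrp1 (-0.81, -1.05 to -0.58). Lsamp, an adhesion molecule of the limbic system, stood at 798 and 1380 CPM, and was found in 67.7% of WT members and 85.6% of cKO members, against 56.2% and 77.8% of apical progenitors, while it stood at 1119 and 1117 CPM in Hs3st4-low neurons. Nfib and Nfix, nuclear factor I genes, stood at 4431 and 4386 CPM and at 1335 and 1335 CPM. Zbtb20, a zinc finger repressor, had -0.37, and Nedd4, a ubiquitin ligase, had -0.36. Hmga2, a chromatin protein of early progenitors, had 16 UMIs in WT and 27 in cKO members, too few to pass the minimum.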

How the data were processed

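The values used are unnormalized UMI counts, which the authors deposited for 2 libraries of 10x Genomics 3′ chemistry after Cell Ranger 7.0.0, per the file headers. Whether intronic reads were counted is not given in the sources used here, and mm10 is listed in the submitters' processing notes without a role. The WT library held 8289 barcodes and 100172392 UMIs and the cKO library 9659 barcodes and 111313526 UMIs, and about 6000 cells per channel are given in the labels as captured and in the study's methods as loaded, with fewer recovered. The study's removal of low-quality cells by mapping to published data was not repeated, and its bulk RNA-seq and LACE-seq were not analysed here. The libraries shared 22 barcodes, and 0 were members in both.

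UMIs were summed over the cells of a group and library and divided by the group's total to give CPM. Log2 ratios have exact conditional intervals, shares exact binomial (Clopper-Pearson) intervals and levels exact Poisson intervals. Genes needed 100 UMIs over members and Hs3st4-low neurons in each library, or 200 over members for cKO against WT, where sex-linked markers and mitochondrial genes were left out. No test was run. Named genes were the markers, the genes of the layer lists, the 15 highest and 8 lowest ratios over Hs3st4-low neurons, the 8 highest and 8 lowest of cKO over WT (without predicted, sex, mitochondrial and haemoglobin genes), genes named by the study or by earlier results of these data, and 2 to 4 of each other list with the largest ratios; further list members, such as Robo1, Map2 and Ext1, and the per-cell make-up of genes were added after the values were seen. Some genes of these lists are counted but not reported here by name. The members and gene lists were chosen with earlier results of these data known. Positions come from GENCODE M21 (mm10), which held 32235 of 32285 gene IDs. Doublets were kept; Scrublet (scanpy 1.11.5) marked 3.30% of WT and 4.37% of cKO cells, 18 and 23 of them members. Steps ran in Python 3.11.15 with scipy 1.17.1 and were tested on simulated data. Alternatives varied the Hs3st4 limit, cell filters, depth, doublets, cell weighting, scaling, comparison group and UMI minimums.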

Additional observations from a re-analysis of the deposited data

Results flagged for a closer look

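For 3 genes among the highest or lowest cKO over WT ratios, the ratio had one sign in Hs3st4-high neurons and the other in Dlx-positive cells. Whether the ratios differ was not tested, since each genotype was 1 embryo. Reln had a log2 ratio of 1.60 in Hs3st4-high neurons and -0.35 in Dlx-positive cells. Thsd7b had 1.34 and -0.49. Npy had -1.62 and 0.31, and its UMIs in Dlx-positive cells were 1165 in WT and 1989 in cKO. In Hs3st4-low neurons the ratios were 1.54 for Reln, 2.94 for Thsd7b and -0.55 (-1.21 to 0.10) for Npy. When Hs3st4-high neurons were taken from 3 Hs3st4 UMIs upwards, the ratio was -0.50 for Reln and -0.088 for Thsd7b, the same sign as in Dlx-positive cells, and -1.67 for Npy. Without the 5 highest cells of each library the Reln ratio was 0.22. In Hs3st4-high neurons 5 cells of a library held 24.4% to 76.2% of the UMIs of these genes.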

How the results depend on the processing

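The 6 markers and the named genes kept their direction over Hs3st4-low neurons under every alternative tried: 266 values moved by less than their counting interval, 101 moved by more and 0 changed sign. Of the values of cKO over WT for named genes, 329 stayed within the interval, 55 moved and 3 changed sign. Those 3 were Reln (-0.50) and Thsd7b (-0.088) with members taken from 3 Hs3st4 UMIs upwards, and Cenpf (0.54) with members held to the excitatory definition, an alternative added after the data were seen. Leaving out the 5 highest members of a gene was also added then.

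Shares of members followed the Hs3st4 limit. They were 8.01% in WT and 8.01% in cKO from 3 UMIs upwards, 5.80% and 5.41% from 8 UMIs upwards, 6.12% and 5.93% with a limit on the share of a cell's UMIs, and 7.36% in cKO after thinning. The log2 ratio of the shares stayed between -0.10 and 0.01 with all cells as the denominator. Over members plus other excitatory neurons the shares were 17.5% and 20.4% and the ratio 0.23, with the 62 WT and 76 cKO members outside the excitatory definition counted. Without them, an alternative added after the data were seen, the shares were 15.7% and 18.3% and the ratio 0.22. Counts of genes followed the UMI minimum and depth. Genes higher and lower in cKO were 266 and 260 from 50 UMIs, 31 and 31 from 500 UMIs, and 235 and 197 after thinning. Genes higher over Hs3st4-low neurons were 295 from 300 UMIs, and genes lower were 187 against Fezf2-positive Hs3st4-low neurons. Subplate genes that were higher numbered 2 with means of per-cell CPM and 1 with members held to the excitatory definition. With 1 or more Nr4a2 UMIs as the limit, the log2 ratios against members without Nr4a2 were 2.50 in WT and 2.41 in cKO for Kcnab1, 2.61 and 2.30 for Cdh10, and -0.85 and -0.73 for Fezf2. After thinning they were 3.79 and 2.88 for Kcnab1, 3.44 and 2.73 for Cdh10, and -2.45 and -1.25 for Fezf2, so that of Fezf2 moved away from 0 in WT and towards it in cKO. No paired analysis was possible because each genotype had 1 library. Ratios of genes with few UMIs, such as Drd1, and any difference between embryos are limited by this depth and by the single embryo.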
